A study of Mus musculus with 6 samples.

Results

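The genes that copy DNA and supply its building blocks were compared between mouse embryonic stem (ES) cells with and without an active 2C::tomato reporter. The 41 members were chosen by name for their role in origin licensing, the replicative helicase, the polymerases, clamp loading or nucleotide supply. The choice by name uses no measured value, but it was made with earlier results of these data known. All 41 had a probeset of their own, out of 19938 genes with one, and for Pcna and Rpa3, each with more than 1 probeset, the one with the highest mean over the 6 arrays was used. RNA came from sorted cells, 3 reporter-positive and 3 reporter-negative samples, numbered 1 to 3 in each group, and was read on Affymetrix whole-transcript arrays. Every sample title marks wild type. The protocol shared by all samples names treatment with vehicle or 4-hydroxytamoxifen (4OHT), the latter to delete Kdm1a, and the titles do not say which of these a sample received. The cells were grown on gelatin with no feeder layer named, and neither the parent line nor whether the samples were separate cultures is given. In published work with this reporter a promoter of an endogenous retrovirus that is active in the early embryo drives the fluorescent protein, and sorted positive cells are a mixture at different points of a passing state.

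Before a cell divides, the origin recognition complex, with Cdc6 and Cdt1, loads the ring of Mcm2 to Mcm7 onto DNA in G1, and geminin (Gmnn) blocks further loading once S phase has begun. Cyclin E with its kinase, Cdc45 and the GINS complex turn the ring into a moving helicase, after which the polymerases, their clamp Pcna and the clamp loader copy both strands. Ribonucleotide reductase and thymidylate synthase make the deoxynucleotides. Many of these genes are transcribed at the border of G1 and S by E2F factors, and ES cells, with their short G1, express them strongly through much of the cycle.

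RefSeq promoters (build GRCm38.p6, 250 bases before to 50 after a gene's start) were at hand for 32 of the 41 members. There were 37 of them, and they were searched for short motifs. An E2F-type motif, searched as TTTCCCGC, TTTGGCGC, TTTCGCGC or TTTGCCGC on both strands, was present in 12 of the 37 member promoters (32.4%), against 744 of all 32851 promoters of the same length (2.26%). The motif strings can overlap one another where a site reads alike on both strands. The 12 promoters belonged to Cdc6, Cdt1, Gins3, Lig1, Mcm3, Mcm5, Mcm6, Mcm7, Orc1, Pola1, Pold1 and Rfc3. CCAAT, the core of the NF-Y site, was in 62.2% of member promoters and 37.4% of all, GGGCGG, the GC box, in 64.9% and 35.7%, and TTTGAA, the core of the element found in mitotic genes, in 10.8% and 17.9%. These matches describe the letters only. The 250 bases before the start are given for Cdc6, Orc1 and Mcm7, whose array values did not overlap between the groups, and for Mcm6, which had the most matches. Capitals mark the E2F-type motif on either strand.

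Cdc6 (chr11:98907901-98908150, plus strand): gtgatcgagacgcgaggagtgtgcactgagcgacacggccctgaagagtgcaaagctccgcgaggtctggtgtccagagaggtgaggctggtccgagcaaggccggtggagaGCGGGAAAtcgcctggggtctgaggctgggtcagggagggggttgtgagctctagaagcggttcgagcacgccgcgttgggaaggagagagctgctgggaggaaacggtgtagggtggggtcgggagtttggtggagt

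Orc1 (chr4:108579204-108579453, plus strand): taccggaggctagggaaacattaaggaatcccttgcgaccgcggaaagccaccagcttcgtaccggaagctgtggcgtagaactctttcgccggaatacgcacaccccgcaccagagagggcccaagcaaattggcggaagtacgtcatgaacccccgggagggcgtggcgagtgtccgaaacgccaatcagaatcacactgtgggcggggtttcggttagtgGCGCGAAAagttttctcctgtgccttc

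Mcm7 (chr5:138171884-138172133, minus strand, 1 of its promoters): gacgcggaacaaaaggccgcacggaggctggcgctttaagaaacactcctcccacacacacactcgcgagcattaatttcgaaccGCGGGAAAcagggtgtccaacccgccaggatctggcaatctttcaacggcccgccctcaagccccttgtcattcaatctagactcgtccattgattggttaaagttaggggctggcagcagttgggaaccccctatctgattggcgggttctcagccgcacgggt

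Mcm6 (chr1:128359706-128359955, minus strand): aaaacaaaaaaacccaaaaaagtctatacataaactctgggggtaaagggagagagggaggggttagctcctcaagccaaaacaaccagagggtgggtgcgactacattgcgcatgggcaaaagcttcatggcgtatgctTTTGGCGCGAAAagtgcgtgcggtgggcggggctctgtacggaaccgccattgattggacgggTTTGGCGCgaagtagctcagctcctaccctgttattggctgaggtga

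The printed stretches of Cdc6, Orc1 and Mcm7 hold 1 match each, and that of Mcm6 holds 3, of which a pair overlaps in the first capital block. Chek1, Fen1 and Rrm2, the other members without overlap, have no E2F-type motif in their windows.

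All values are log2 levels as normalized by the authors, and a difference is always positive minus negative on that scale. Arrays with the same number are called pair 1, 2 and 3. Pluripotency markers were present in all arrays, with a mean of the 10 ES cell markers between 11.92 in positive array 2 and 12.34. Markers of the two-cell-like state (9 measured of 11 listed) had a mean of 5.34, 5.44 and 5.62 in negative arrays 1 to 3 and of 8.17, 11.15 and 7.10 in positive arrays 1 to 3, so positive array 2 stood far above the other positive arrays. All 9 had a higher mean in positive arrays (median difference 3.34), yet 0 of them had a limma adjusted p under 0.05 (8 an unadjusted one). Arrays with the number 2 also resembled each other: the lower quartile of all probesets was 5.30 and 5.29 in negative and positive array 2 and 5.42 to 5.44 in the other arrays. Fibroblast, primitive endoderm and trophectoderm markers had mean levels of 7.51 to 8.31, 7.45 to 8.09 and 8.60 to 9.57. Of these, 8 of 12, 8 of 8 and 4 of 8 genes were lower in positive arrays, against 60.2% of all genes. The fibroblast mean was highest in number 2 of both groups (8.31 negative, 8.19 positive, at most 7.98 in other arrays). So was the trophectoderm mean (9.51 negative, 9.57 positive, at most 8.91 in other arrays). The primitive endoderm mean was not (7.95 and 7.91). Its markers were lower in pairs 1, 2 and 3 for 8, 4 and 8 of 8, against 54.3%, 59.1% and 51.4% of all genes. Single markers varied more: fibroblast differences ranged from -1.16 for Acta2 to 0.55 for Thy1, and trophectoderm ones from -0.54 for Krt7 to 0.50 for Gata3. The part of these markers in the results was not tested.

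The replication genes differed little between reporter-positive and reporter-negative cells, and no member passed the test. With limma and Benjamini-Hochberg adjustment over all 19938 genes, 0 of 41 members had an adjusted p under 0.05 (smallest 0.910), where 0% of all genes passed. Blocking on the number left 0 members and 0% of all genes past it as well (smallest adjusted p of a member 0.399). At an unadjusted p under 0.05, 1 member was lower, Cdc6, and 0 were higher, against 2.46% and 1.95% of all genes. With the block, those member counts were again 1 and 0, against 6.61% and 5.4% of all genes. The sizes were small: member differences ranged from -0.40 for Cdc6 to 0.17 for Orc1, and their SEs from 0.10 to 0.26. The 95% intervals of all 41 differences lay between -0.69 and 0.58, and 40 of them held 0. A 2-fold difference, 1 on this scale, therefore lay outside every member's interval. These intervals, and all SEs given here, come from the fit without the block, which does not use the pairing. The largest SE, that of Pola1 (0.26), was 0.12 with the block, while that of Rfc3 was 0.17 in both fits.

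Over all 6 arrays the members leaned downward, most of all in pair 2. Of the 41, 32 had a lower mean in positive arrays, where 60.2% of all genes did, and the median difference was -0.07 against -0.04 over all genes. Without both arrays of number 2, 24 had a lower mean, and the share of all genes was not counted there. The members' median of -0.0062 then lay above that of all genes (-0.017). By this median, in the values as deposited, no lean beyond all genes was left. A lean in pairs 1 and 3 depended on the scaling, as the counts after a second quantile normalization below show. In pair 2, 36 of 41 members were lower in the positive array, against 59.1% of all genes, with a median of -0.22 against -0.05. In pair 1, 16 members were lower, against 54.3% of genes (median 0.02 against -0.02), and in pair 3, 24 were, against 51.4% (median -0.03 against -0.0065). A second quantile normalization over the probesets used left 33 members lower in pair 2 and 29 in pair 3, against 55.9% and 50.8% of all genes. It turned pair 1, where 26 were then lower, against 52.4% of all genes (median -0.02 against -0.01). For 30 members pair 2 had the lowest of the 3 pair differences, which was so for 40.8% of all genes. Both arrays of the pair contributed: positive array 2 was the lowest of the 6 arrays for 23 members (32.1% of all genes), and negative array 2 the highest for 19 (19.5% of all genes).

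Averaged over the members, the level was 10.84, 10.93 and 10.89 in negative arrays 1 to 3 and 10.86, 10.72 and 10.85 in positive arrays 1 to 3. Positive array 2 was the lowest and negative array 2 the highest, while positive arrays 1 and 3 lay among the negative arrays. The mean difference over the members was -0.07, and 0.02, -0.21 and -0.03 in pairs 1, 2 and 3. Without positive array 2 it was -0.03, without both arrays of number 2 it was -0.0054, and with array weights it was -0.04. Positive array 2 is also the array with the highest two-cell-like markers, whose part in the lower levels there was not tested. In sorted bulk samples, fewer cells of a type and less RNA per cell cannot be told apart.

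**Figure D1:**
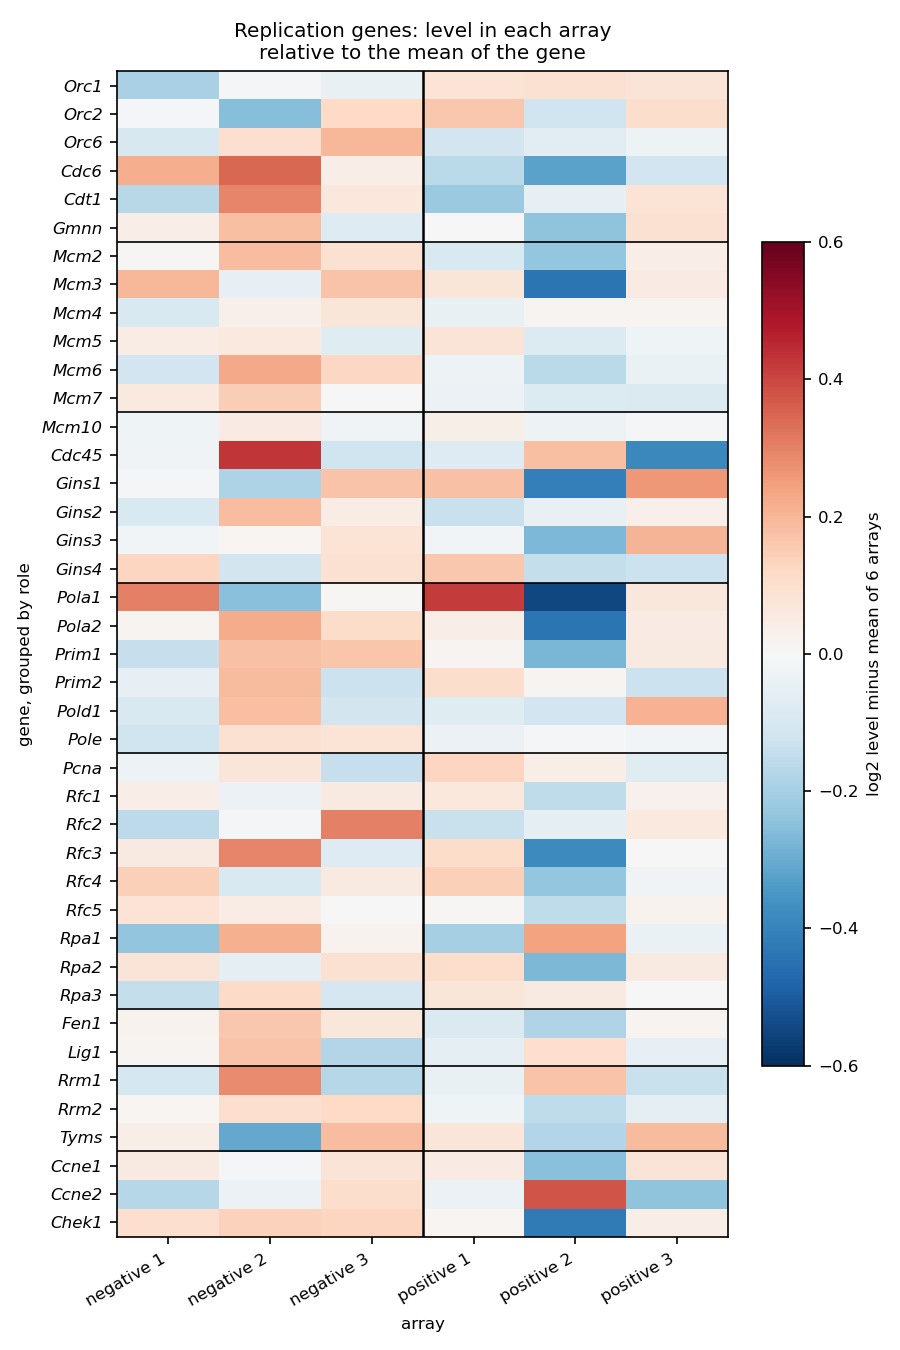
Each row is a member, each column an array, and the colour is the log2 level minus the gene's mean over the 6 arrays; black lines part the roles. Blue marks levels below the gene's mean and red levels above it. In the column of positive array 2, 23 of the 41 members have their lowest level, against 32.1% of all genes.

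**Figure D2:**
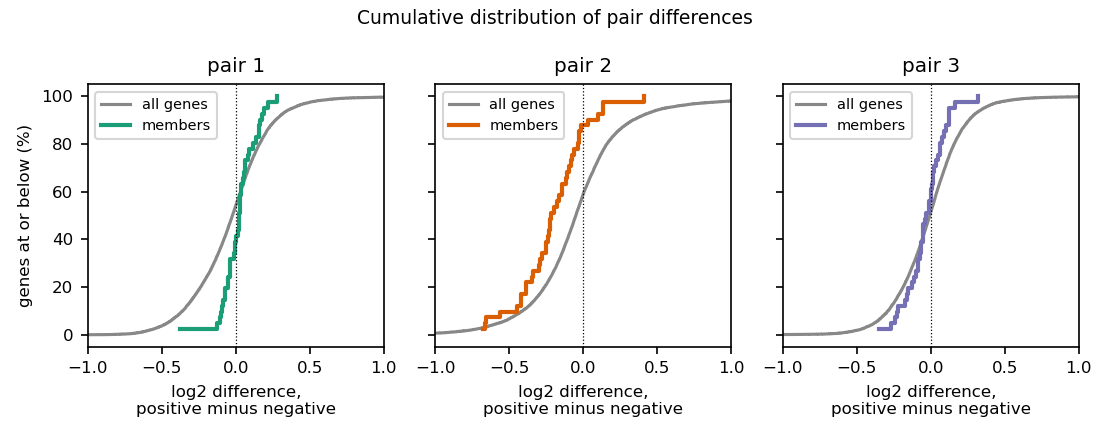
Cumulative share of genes (vertical axis, percent) at or below a log2 difference (horizontal axis, shown from -1 to 1) in each same-numbered pair, for the 41 members (coloured) and all 19938 genes (grey). In pair 2 the members' curve lies to the left, with a median of -0.22 against -0.05, and in pairs 1 and 3 the members' medians are 0.02 and -0.03.

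Groups that did not overlap were few. In 5 members, Cdc6, Mcm7, Fen1, Rrm2 and Chek1, all positive arrays lay below all negative arrays, 12.2% of members against 7.15% of all genes. In 1 member, Orc1, they lay above, against 4.08% of all genes. Without negative array 1 the 5 became 13, against 9.95% of all genes, and the added members were Gins2, Mcm2, Mcm4, Mcm6, Orc6, Pola2, Pole and Prim1. The 1 higher member became 2 without negative array 2 (Rpa3 added, 11% of all genes), 2 without positive array 2 (Gins1 added, 10.9%) and 5 without both arrays of number 2 (Gins1, Mcm10, Pold1 and Rpa3 added, 19.2%). Counted by pair, 11 members were lower in all 3 pairs, against 23.7% of all genes, and 2 were higher, Orc1 and Tyms, against 15.1%. Tyms dropped out after median centring and after a second quantile normalization, which left 1. After a second quantile normalization 16 of 41 members were lower in all 3 pairs, against 4284 of all 19938 genes. The 11 make up 26.8% of the members and were Cdc45, Cdc6, Chek1, Fen1, Gins2, Mcm2, Mcm3, Mcm7, Orc6, Rfc4 and Rrm2.

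Among the genes that mark and license origins, Cdc6 and Orc1 stood at opposite ends of the whole set. Cdc6, the ATPase that brings the helicase to the origin complex, was at 9.03, 9.16 and 8.85 in negative arrays 1 to 3 and at 8.65, 8.49 and 8.70 in positive arrays 1 to 3 (probeset 10381072). Its groups did not overlap, and negative array 2 was the highest and positive array 2 the lowest. Its positive mean of 8.61 ± 0.11 (SD, n = 3) stood against 9.01 ± 0.15 (SD, n = 3) for the negative arrays, so it differed by -0.40 (SE 0.12), or was 1.32-fold lower, which did not pass (limma adjusted p = 0.910; 0.399 with the block). By pair it differed by -0.38, -0.66 and -0.15, and without both arrays of number 2 by -0.27. This was the largest difference of any member, and it kept its sign with each array left out in turn, between -0.48 and -0.33.

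Orc1, the largest subunit of the origin recognition complex, was at 10.50, 10.69 and 10.65 in negative and at 10.78, 10.79 and 10.77 in positive arrays. The positive arrays lay within 0.02 of one another and above the highest negative array, and negative array 1 was the lowest. The difference was 0.17 (SE 0.10) (limma adjusted p = 0.910), with pairs at 0.28, 0.10 and 0.12. Of the other subunits among the members, Orc2 differed by 0.10 (SE 0.14) with overlap, and Orc6 by -0.14 (SE 0.12) with all pairs below 0. Cdt1, the partner of Cdc6 in loading, was at 11.84, 12.31 and 12.08 in negative and 11.79, 11.96 and 12.09 in positive arrays. Its groups overlapped, and the pair differences of -0.06, -0.34 and 0.02 put the gap in pair 2. Geminin, the inhibitor of Cdt1, was at 7.47, 7.61 and 7.35 in negative and 7.43, 7.19 and 7.52 in positive arrays. Positive array 2 was the lowest and positive array 3 lay above 2 of the negative arrays, with pairs at -0.04, -0.42 and 0.17.

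All 6 subunits of the Mcm2 to Mcm7 ring, the motor of the helicase, had a lower mean in positive arrays, with differences from -0.21 to -0.0057. All 6 were also lower in pair 2. Of all genes, 60.2% had a lower mean and 59.1% were lower in pair 2. A second quantile normalization turned Mcm4 in both (mean difference 0.0012). Mcm3 was at 11.67, 11.42 and 11.64 in negative and 11.54, 11.03 and 11.52 in positive arrays. Positive array 2 stood apart, 0.39 below the next array, and the difference of -0.21 (SE 0.17) was -0.05 without it (limma adjusted p = 0.915 with all arrays). Mcm2 was at 12.26, 12.44 and 12.35 in negative and 12.16, 12.02 and 12.29 in positive arrays, with pairs at -0.10, -0.42 and -0.05. Positive array 3 lay above negative array 1, so its groups overlapped, and the difference was -0.19 (SE 0.12). Mcm7 was at 12.49, 12.58 and 12.43 in negative and 12.40, 12.35 and 12.35 in positive arrays. Its groups were parted by 0.03, positive array 3 was the lowest, and the pairs were -0.10, -0.23 and -0.09. Mcm6 was at 11.20, 11.54 and 11.43 in negative and 11.28, 11.15 and 11.27 in positive arrays. Its lowest negative array lay among the positive arrays, and its pairs were 0.08, -0.39 and -0.16. Mcm5 was at 12.52, 12.54 and 12.41 in negative and 12.55, 12.39 and 12.45 in positive arrays. Mcm5 and Mcm4, with differences of -0.02 (SE 0.11) and -0.0057 (SE 0.10), were the subunits nearest to 0.

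The 6 genes that activate the ring were all lower in pair 2, with 2 lower in pair 1 and 3 in pair 3. Of all genes, 59.1%, 54.3% and 51.4% were lower in pairs 2, 1 and 3. After a second quantile normalization 5 of the 6 were lower in pair 2, against 55.9% of all genes. Cdc45, which binds the ring together with GINS, was at 9.72, 10.17 and 9.62 in negative and 9.67, 9.92 and 9.36 in positive arrays. It was highest in number 2 of both groups, so its groups overlapped while its pairs were -0.05, -0.25 and -0.27. The difference of -0.19 (SE 0.20) did not pass (limma adjusted p = 0.924), and was -0.33 without positive array 2 and -0.02 without negative array 2. The GINS subunits overlapped between the groups: Gins1 differed by 0.02 (SE 0.20), Gins2 by -0.09 (SE 0.12), Gins3 by -0.05 (SE 0.14) and Gins4 by -0.07 (SE 0.13). All 4 were lower in pair 2, with differences from -0.28 to -0.03, except Gins4 after a second quantile normalization. Mcm10, which helps the helicase start, differed by -0.0035 (SE 0.10), with all arrays between 11.27 and 11.35.

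All 6 polymerase and primase genes were lower in pair 2 and all 6 were higher in pair 1, where a second quantile normalization turned Pola2 and Pold1. Of all 19938 genes, 59.1% were lower in pair 2 and 9102 were higher in pair 1. Pola2, the second subunit of polymerase alpha, which starts each new strand with primase, was at 11.55, 11.75 and 11.64 in negative and 11.57, 11.09 and 11.58 in positive arrays. Positive array 2 alone lay far below, and positive array 1 lay above negative array 1. The difference of -0.23 (SE 0.16) became -0.07 without that array (limma adjusted p = 0.910 with all arrays), and the pairs were 0.02, -0.66 and -0.06. The catalytic subunit Pola1 differed by -0.04 (SE 0.26), with the largest SE of the members and pairs at 0.12, -0.30 and 0.06. It was lowest in number 2 of both groups. The primase subunits Prim1 and Prim2 differed by -0.14 (SE 0.14) and -0.0072 (SE 0.13). Pold1 and Pole, the catalytic subunits of the lagging- and leading-strand polymerases, differed by 0.01 (SE 0.14) and -0.04 (SE 0.11).

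Among the clamp, its loader and the single-strand binding proteins, 8 of 9 genes were lower in pair 2 and 2 in pair 1. Of all genes, 59.1% and 54.3% were. After a second quantile normalization 7 were lower in each of these pairs, against 55.9% and 52.4% of all genes. Pcna, the clamp, was at 12.94, 13.04 and 12.83 in negative and 13.10, 13.01 and 12.90 in positive arrays. The groups overlapped, and the difference was 0.06 (SE 0.11) (limma adjusted p = 0.964). Of the loader subunits, Rfc3 was at 9.91, 10.14 and 9.77 in negative and 9.96, 9.47 and 9.85 in positive arrays. Positive array 2 was the lowest by 0.30, the pairs were 0.05, -0.68 and 0.08, and without both arrays of number 2 the difference of -0.18 (SE 0.17) turned to 0.07. Rfc1, Rfc2, Rfc4 and Rfc5 differed by -0.04, -0.09, -0.07 and -0.08 (SEs 0.10 to 0.15). The single-strand binding subunits had different signs: Rpa1 differed by 8.0e-04 (SE 0.17), and by -0.0085 after median centring, Rpa2 by -0.08 (SE 0.13) and Rpa3 by 0.09 (SE 0.11). Fen1, the nuclease that trims the RNA primers of Okazaki fragments, was at 9.35, 9.50 and 9.40 in negative and 9.25, 9.15 and 9.35 in positive arrays. Its groups were parted by 0.0047, between negative array 1 and positive array 3, and the difference was -0.17 (SE 0.11) (limma adjusted p = 0.910). Lig1, the ligase that joins the fragments, differed by -0.0078 (SE 0.13).

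In nucleotide supply Rrm2 was the member with the larger difference. Rrm2, the subunit that carries the radical and follows the cell cycle, was at 12.30, 12.39 and 12.41 in negative and 12.26, 12.13 and 12.23 in positive arrays. The groups did not overlap, by a gap of 0.04, and the difference was -0.16 (SE 0.10) (limma adjusted p = 0.910) with pairs at -0.04, -0.25 and -0.17. Rrm1, the large subunit, was at 11.66, 12.05 and 11.59 in negative and 11.72, 11.93 and 11.63 in positive arrays. It was highest in number 2 of both groups and differed by -0.0034 (SE 0.16). The difference between the subunits was not tested. Tyms, thymidylate synthase, was at 10.30, 9.95 and 10.44 in negative and 10.33, 10.08 and 10.44 in positive arrays. It was lowest in number 2 of both groups, and its pairs of 0.03, 0.13 and 0.0052 were all above 0, which did not hold after median centring or a second quantile normalization.

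Of the regulators, Chek1, the kinase that guards stalled forks, had the second largest difference of the members. It was at 11.18, 11.22 and 11.21 in negative and 11.09, 10.66 and 11.12 in positive arrays, so the negative arrays lay within 0.04 of one another and positive array 2 lay 0.44 below the next positive array. The difference of -0.25 (SE 0.15), 1.19-fold lower, did not pass (limma adjusted p = 0.910), and it was -0.10 without positive array 2, still with no overlap. Ccne1, cyclin E1, was at 12.32, 12.25 and 12.34 in negative and 12.31, 12.02 and 12.34 in positive arrays. Positive array 2 alone lay below the range of the negative arrays, and the difference was -0.08 (SE 0.12). Ccne2, cyclin E2, was at 8.22, 8.36 and 8.50 in negative and 8.36, 8.77 and 8.15 in positive arrays. It was highest in positive array 2 and lowest in positive array 3, with pairs at 0.13, 0.41 and -0.35.

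**Figure D3:**
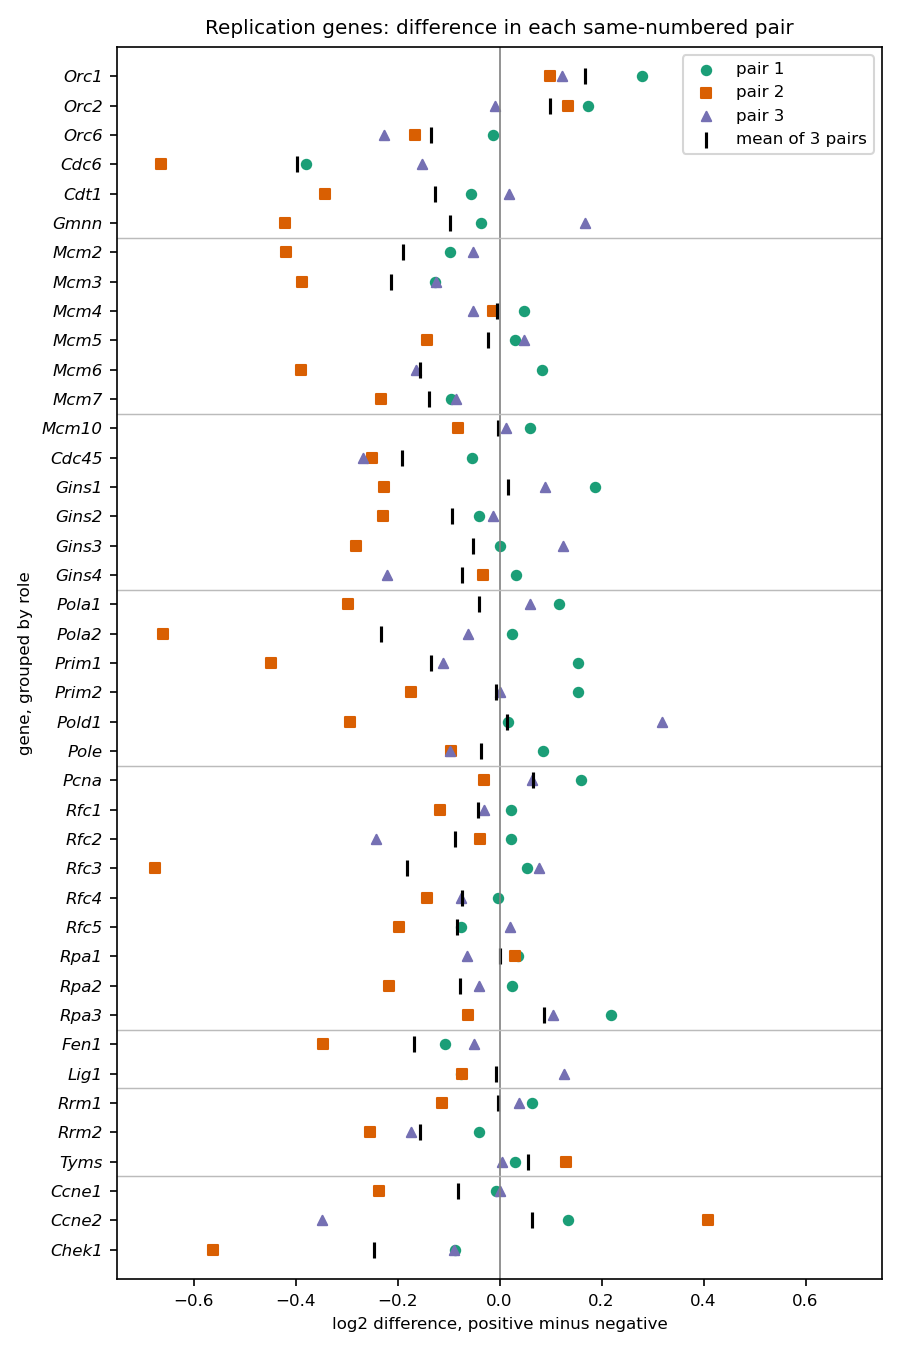
Log2 difference, positive minus negative, in same-numbered pairs 1 (circles), 2 (squares) and 3 (triangles) for each member, with a bar at their mean; grey lines part the roles. The squares lie below 0 for 36 of 41 members, while circles lie below 0 for 16 and triangles for 24. Of all genes, 54.3%, 59.1% and 51.4% were lower in pairs 1, 2 and 3.

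**Figure D4:**
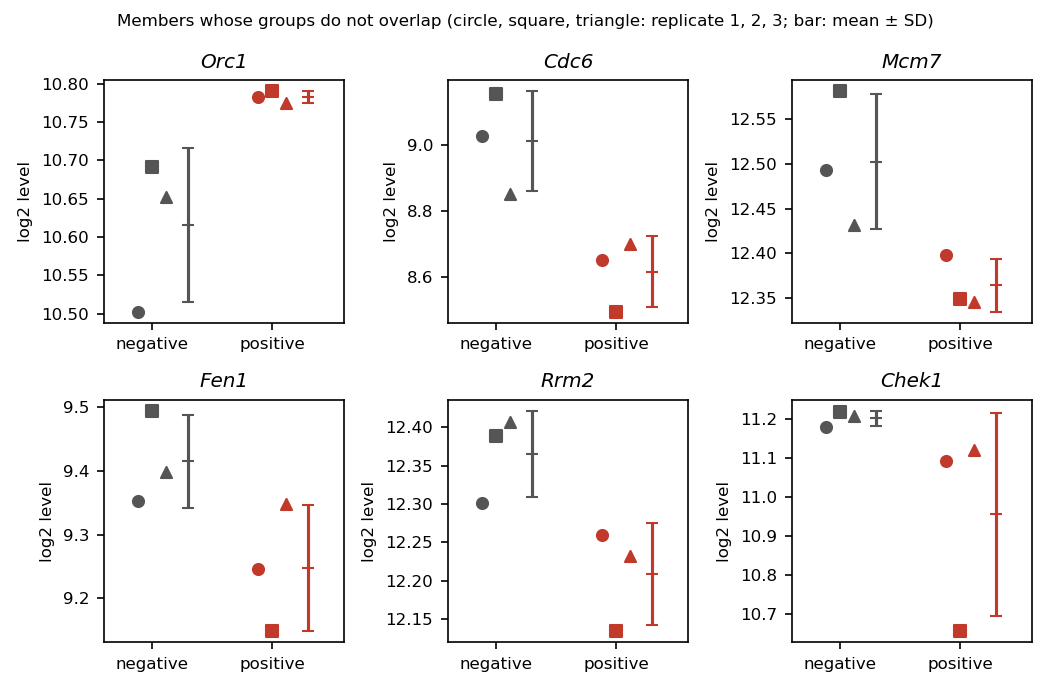
Log2 level of the 6 members without overlap in each negative (grey) and positive (red) array, with the mean and SD of 3 arrays beside them; each panel has its own axis. Orc1 is the member with positive arrays above, and in Chek1 positive array 2 lies 0.44 below the next.

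Genes of the same processes that are no members were taken from lists by name. Of 37 other origin, fork and checkpoint genes, 0 passed limma's test (1 at an unadjusted p under 0.05, Orc5), 20 had a lower and 17 a higher mean in positive arrays, and the median difference was -0.0025 against -0.04 over all genes. In pair 2, 23 of the 37 were lower (59.1% of all genes). In pairs 1 and 3, 28 and 31 were higher, against 9102 and 9692 of all 19938 genes. After a second quantile normalization 18 and 20 were, against 9454 and 9777 of all genes. In all 3 pairs 14 were higher, against 15.1% of all genes, and after that normalization 8 were, against 3208 of all 19938. The largest difference was that of Mcm9, a relative of the ring subunits that acts in recombination, at 0.57 (SE 0.26) with negative arrays at 7.75, 7.61 and 7.60 and positive arrays at 7.99, 8.84 and 7.84. Positive array 2 was the highest there, opposite to most members. Ticrr, which helps load Cdc45, differed by 0.38 (SE 0.23) with its highest level in positive array 2. Orc5, another origin complex subunit, differed by 0.36 (SE 0.11) without overlap and with pairs at 0.43, 0.23 and 0.43, so it lay on the side of Orc1. For all 3 the limma adjusted p was 0.910.

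Of 25 measured further nucleotide supply genes, 0 passed limma's test (also 0 unadjusted), 19 had a lower and 6 a higher mean, against 60.2% of all genes lower, and the median was -0.10. In pairs 1, 2 and 3, 16, 18 and 14 were lower, against 54.3%, 59.1% and 51.4% of all genes. After a second quantile normalization these counts were 20, 15 and 16, against 52.4%, 55.9% and 50.8% of all genes. Ppat, the first enzyme of purine synthesis, differed by -0.31 (SE 0.17) with pairs at -0.26, -0.42 and -0.25. Dut, which removes dUTP, differed by -0.27 (SE 0.12) without overlap, with pairs at -0.33, -0.17 and -0.33. Shmt1, of the folate cycle that feeds thymidylate, differed by -0.23 (SE 0.26), and none of these passed (limma adjusted p from 0.910 to 0.932). Among 20 measured E2F, RB and G1 regulators, 0 passed (also 0 unadjusted), 14 had a lower and 6 a higher mean (median -0.09), against 60.2% of all genes lower. In pair 2, 15 were lower, against 59.1% of all genes. In pairs 1 and 3, 13 and 10 were higher, against 9102 and 9692 of all 19938 genes. After a second quantile normalization 8 were higher in pair 1, against 9454 of all genes. Cdk6, a G1 kinase, differed by -0.56 (SE 0.25), Rb1, the retinoblastoma repressor of E2F, by 0.39 (SE 0.25), and Ccnd2, a D-type cyclin, by -0.25 (SE 0.19). Cdk6 was at 9.49, 10.48 and 9.95 in negative and 9.38, 9.25 and 9.62 in positive arrays, and its pair 2 difference was -1.24. None of the 3 passed (limma adjusted p from 0.910 to 0.911).

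The genes of G2 and mitosis lay on the other side. Of 15 measured, 0 passed limma's test (1 at an unadjusted p under 0.05, Cenpe), 13 had a higher and 2 a lower mean in positive arrays, against 39.8% of all genes higher, and the median difference was 0.14. In pair 2, 14 of the 15 were higher in the positive array (median 0.27), against 8152 of all 19938 genes. In pairs 1 and 3, 14 and 11 were higher, against 9102 and 9692 of all genes. In all 3 pairs 11 were higher, against 15.1% of all genes. After a second quantile normalization 9 were, against 3208 of all 19938 genes. Without overlap 4 were higher, Aurkb, Cdk1, Cenpe and Plk1, against 4.08%. Cenpe, a kinetochore motor, differed by 0.35 (SE 0.14) with negative arrays at 10.005, 10.07 and 10.26 and positive arrays at 10.33, 10.70 and 10.36. Cenpf, a kinetochore protein, differed by 0.31 (SE 0.16), and Cdk1, the mitotic kinase, by 0.28 (SE 0.13) with pairs at 0.12, 0.45 and 0.27. All 3 had their highest level in positive array 2, where 23 members had their lowest, and all 3 had a limma adjusted p of 0.910. The contrast between these genes and the members was not tested, and the share of cells in each phase was not measured.

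**Figure D5:**
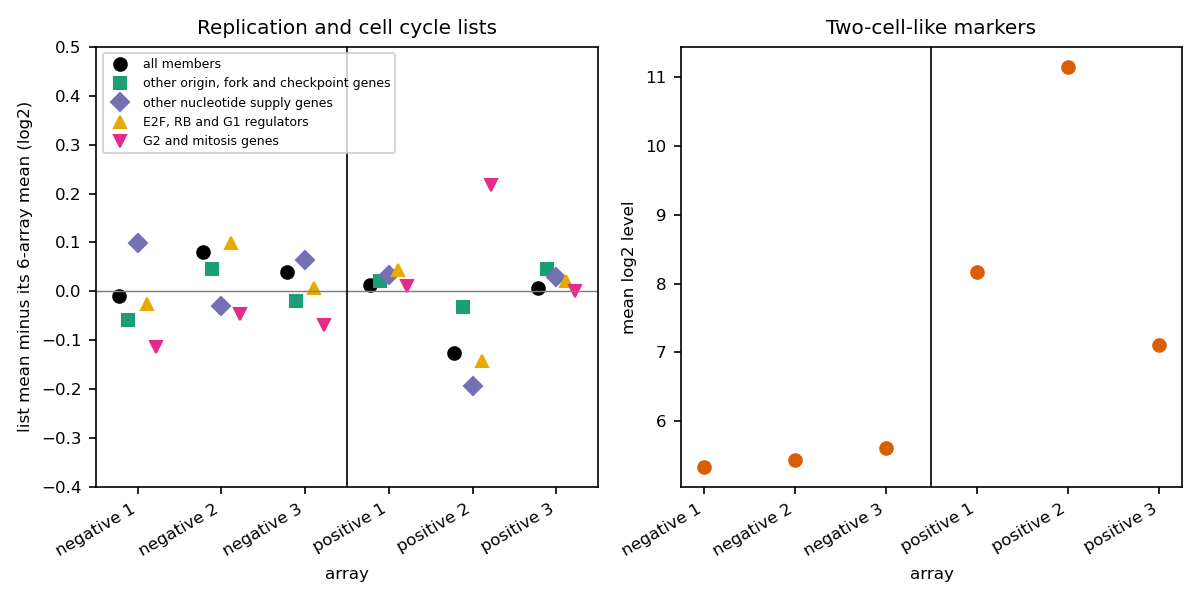
Left, mean log2 level of each list in each array minus the list's mean over the 6 arrays; right, mean log2 level of the two-cell-like markers. In positive array 2 the members have their lowest mean (10.72), the G2 and mitosis genes their highest (11.86), and the two-cell-like markers reach 11.15 against 7.10 and 8.17 in the other positive arrays.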

How the data were processed

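The deposited table holds log2 levels of 6 Affymetrix whole-transcript arrays, made by the authors with RMA (background correction, quantile normalization and probeset summary) in Expression Console, per the submitters' processing notes. The software version and the genome build are, for this table, not given in the sources used here. Of 35556 probesets, 21789 carry 1 gene symbol in the platform annotation, 1621 several and 12146 none. Probesets with 1 symbol gave 19938 genes, each by its probeset of highest mean. The values were used as deposited. Groups came from the sample titles, 3 arrays each, and were compared by limma's moderated two-sided test (limma 3.58.1, R 4.3.3) with Benjamini-Hochberg adjustment over all genes at 0.05. The fit was tested on simulated data.

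Same-numbered arrays deviated from their group means together across 19938 genes (r = 0.55, 0.55 and 0.46 for numbers 1, 2 and 3). The numbers, which come from the titles, were therefore taken to pair the arrays. Numbers 1 and 3 of opposite groups also deviated together, more weakly (r = 0.20 both ways). Number 2 ran against both (r from -0.52 to -0.41), so numbers 1 and 3 are less clearly told apart from each other. What a number stands for is not stated. Nor is it stated that the samples came from separate cultures, so a p-value here is set against the spread of these 6 samples alone, and that spread may be technical. The 6 arrays limit the precision.

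The members and gene lists were chosen with earlier results of these data known. Members described with every array's level were those without overlap, the 10 of largest difference and a set chosen by name (of which Cdt1, Gmnn, Mcm5, Mcm6, Pcna, Rrm1, Tyms, Ccne1 and Ccne2 met neither other rule). From the other lists the 3 genes of largest difference were named. Alternatives were the replicate block, median centring, a second quantile normalization, no dim genes, the mean of a gene's probesets, array weights, each array left out and both arrays of number 2 left out. Some listed genes had no probeset of their own, among them Impdh2, Cdkn1a, Ccnb1, Tdpoz4 and Tcstv1. RefSeq promoter tables held no entry for Ccne2, Gins1, Gins2, Gins4, Gmnn, Mcm4, Pole, Prim2 and Rfc2.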

Additional observations from a re-analysis of the deposited data

How the results depend on the processing

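No member passed the limma test under any alternative run, and the lowest adjusted p of a member was 0.399 with the replicate block and 0.151 with array weights. The block, run because the numbers pair the arrays, changed no call. The mean difference over the members was -0.07. It stayed below 0, from -0.10 to -0.03 with an array left out, and was -0.0054 without both arrays of number 2. It moved by less than the spread between pairs (0.02, -0.21 and -0.03). That spread is wider than the difference itself, so this measure could not show that the difference is stable. Members lower without overlap numbered 5 to 13 with an array left out, the 13 without negative array 1. The share of all genes was 9.95% there and 7.15% with all arrays, and was not counted for the other arrays left out. Members higher without overlap numbered 1 to 2, and 5 without both arrays of number 2. In that last setting 19.2% of all genes were, against 4.08% with all arrays. Leaving out an array can only raise such counts, for all genes too. Counts by pair were added after seeing the data. The block, array weights and leaving out arrays of another number cannot change a pair's count, so they do not test it. Members lower in pair 2 numbered 36, also after median centring and with the mean of a gene's probesets, and 33 after a second quantile normalization. Members lower in every pair numbered 11 under the first 2 of these, and 16 after a second quantile normalization.

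Of 41 members, 19 kept their sign in every alternative, although Pole was at 0 without negative array 2. The sign turned with array weights in Ccne2 (-0.16), Gmnn (0.073), Lig1 (0.097), Mcm10 (0.032), Mcm5 (0.081), Pola1 (0.19), Prim2 (0.12), Rfc3 (0.082), Rpa1 (-0.11), Rrm1 (0.085) and Tyms (-0.052). It turned without both arrays of number 2 in Ccne2 (-0.11), Gins3 (0.063), Gmnn (0.065), Lig1 (0.025), Mcm10 (0.036), Mcm5 (0.039), Pola1 (0.088), Prim1 (0.021), Prim2 (0.077), Rfc3 (0.066), Rpa1 (-0.014) and Rrm1 (0.051). It turned with a second quantile normalization in Gins1 (-0.025), Mcm4 (0.0012) and Rpa1 (-0.0071), and with median centring in Rpa1 (-0.0085). With each array left out in turn, the differences of these members lay on both sides of 0: Ccne1 (-0.14 to 0.023), Ccne2 (-0.11 to 0.20), Gins1 (-0.11 to 0.23), Gins3 (-0.17 to 0.070), Lig1 (-0.097 to 0.076), Mcm10 (-0.021 to 0.021), Mcm4 (-0.053 to 0.028), Mcm5 (-0.065 to 0.015), Orc2 (-0.0038 to 0.18), Pola1 (-0.26 to 0.22), Pold1 (-0.087 to 0.11), Prim2 (-0.074 to 0.086), Rfc1 (-0.084 to 0.023), Rfc2 (-0.19 to 0.042), Rfc4 (-0.16 to 0.023), Rpa1 (-0.12 to 0.11), Rpa2 (-0.15 to 0.039), Rrm1 (-0.090 to 0.14) and Tyms (-0.085 to 0.16). None of these differences passed the test in either direction, and the cause was not tested. With 3 arrays a group and no block, the median SE of a member's difference was 0.13, which limits what could be told from 0.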
